A study of Mus musculus with 6 samples.

Results

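The 10 genes described here are transcriptional targets of p53: *Mdm2*, *Ccng1*, *Bax*, *Bbc3*, *Phlda3*, *Eda2r*, *Trp53inp1*, *Zmat3*, *Sesn1* and *Btg2*. They were taken as a fixed list of names, and each matched 1 of the 47643 Ensembl gene IDs in the count files. All 10 passed the filter on low counts, under which 15792 genes were tested. The RNA came from organoids of the mouse submandibular salivary gland (mSGOs), which adult gland cells form when they are digested, grown as spheres, dissociated and plated in Matrigel. The cells came from 3 C57BL/6 mice aged 8 to 12 weeks, and the study used females only. Each mouse gave 1 library at day 5 and 1 at day 7, so that 6 libraries fall into 2 groups of 3. Both groups were untreated and non-irradiated, with no allele or agent separating them. Both were kept in WRY medium, which holds EGF, FGF2, N2, insulin, dexamethasone, the ROCK inhibitor Y27632 and conditioned media with Wnt3a and R-spondin1. The only difference between the groups that the labels give is the day. No irradiated sample or p53-deficient sample was analysed here, so the values below are those of untreated cultures.

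p53 is a transcription factor that is kept scarce by the ubiquitin ligase MDM2 and is stabilised when DNA is damaged or growth is disturbed. It binds a response element made of a short motif in repeat and switches on genes for its own removal, for cell cycle arrest, for cell death and for metabolic restraint. In glandular epithelium it is best known for the arrest and death that follow irradiation. Many of its targets also respond to other signals: *Btg2* is an immediate early gene, sestrins respond to nutrient and oxidative stress, and p63 of basal epithelial cells recognises a similar element.

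The libraries held 1918198 to 2837397 counts in genes, and a gene without a count could hold up to 3 counts, which is 1.06 to 1.56 CPM, counts scaled to 1000000 per library. Libraries were made with a kit that reads the 3′ end of polyadenylated transcripts, so counts are not divided by gene length and levels are compared only between libraries of 1 gene. All CPM below are scaled by the TMM factors of edgeR. Entries that name no gene held 13.7% to 14.4% of reads at day 5 and fewer, 9.12% to 9.74%, at day 7, and their part in the results below was not tested. All 8 epithelial markers had counts, with a summed level of 11810 to 18170 CPM per library. The 6 lymphocyte markers had no count, and the 6 endothelial, 6 fibroblast and 6 erythroid markers summed to at most 1.96 CPM in any library. *Csf1r*, *Adgre1*, *Lyz2*, *C1qa* and *C1qb* of macrophages were at 0, and the macrophage list summed to 8.03 to 10.7 CPM at day 5 and 9.30 to 13.9 CPM at day 7. Within it *Cd68* rose from 1.00 to 5.27 CPM on 7 and 39 reads (log2 fold change 2.36, adjusted p = 0.0151 by edgeR), while *Cd14* had 8.13 and 5.65 CPM (-0.48, adjusted p = 0.471 by edgeR). The neuron and Schwann cell list summed to 8.64 to 10.0 CPM at day 5 and 1.39 to 3.43 CPM at day 7, and its highest gene *Tubb3* fell by 3.19 on the log2 scale (adjusted p = 0.00277 by edgeR). The part of either list in the results below was not tested. Day 7 libraries lay further apart than day 5 libraries, with biological coefficients of variation of 0.290 and 0.0900.

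Before the values, promoters were searched for the p53 response element. The RefSeq promoter table, built on GRCm38.p6 with 300 bases from 250 before to 50 after each start site, holds 8 of the 10 genes. *Trp53inp1* and *Zmat3* have no entry there. The search took pairs of the p53 decamer consensus, with the C and G of both cores intact, a spacer of 0 or 1 base and at most 3 mismatches over the 20 positions; the consensus is palindromic and was therefore read on both strands at once. Such an element was found for *Ccng1*, *Bax*, *Bbc3* and *Sesn1*, and for the p53 target *Cdkn1a*, which is shown as a reference. Of all 32841 promoters in the table, 2.83% hold one. Counted by gene, 3.27% of the 27018 genes with a promoter there hold one at any start site. The element is in capitals, 5′ to 3′ on the strand of the gene, with coordinates of the window in GRCm39 found by exact match:
*Ccng1* (chr11:40646284-40646313, minus strand): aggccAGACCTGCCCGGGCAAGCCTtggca
*Bax* (chr7:45116498-45116527, minus strand): tcccAGGCAAGCTTTGAACTTGCGGcaatt
*Bbc3* (chr7:16043406-16043435, plus strand): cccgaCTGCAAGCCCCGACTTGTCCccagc
*Sesn1* (chr10:41763257-41763286, plus strand): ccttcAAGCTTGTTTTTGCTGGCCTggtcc
*Cdkn1a* (chr17:29309897-29309926, plus strand): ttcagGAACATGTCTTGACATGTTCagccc
*Mdm2*, single decamer (chr10:117546835-117546854, minus strand): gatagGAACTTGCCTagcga

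The *Ccng1* element had 1 mismatch, as did that of *Cdkn1a*, and 0.110% of all promoters hold one this close. The *Bax* element had 2 mismatches and a spacer of 1 base, and those of *Bbc3* and *Sesn1* had 3 mismatches. They began 195 bases before the start site for *Ccng1*, 201 for *Bax*, 97 for *Bbc3* and 173 for *Sesn1*. The *Bbc3* element belongs to the first of 3 listed start sites, and that of *Sesn1* to the second of 2. *Mdm2* held only a single decamer without mismatch, which is found in 8.36% of all promoters. No pair within 3 mismatches stood in the window of *Mdm2*, *Phlda3*, *Eda2r* or *Btg2*. A match in these windows is a description of the sequence and not a measure of p53 binding. An element outside these windows would not be found. The 4 genes with an element did not share a direction between the days, as the values below show.

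The design allows 1 comparison, of 7-day with 5-day mSGOs. *Btg2*, which slows proliferation through mRNA deadenylation, was 3.24-fold higher at day 7, and *Sesn1*, an inhibitor of mTORC1, was 2.23-fold higher. These 2 of 10 genes passed the threshold of 0.05 for the adjusted p and of 0.6 for the size of the log2 change (quasi-likelihood test of edgeR with Benjamini-Hochberg adjustment across all genes tested). None passed it downwards. Among all genes tested, 12.0% passed it, 7.22% upwards and 4.82% downwards. The log2 fold changes of the 10 genes had a median of 0.36, against -0.01 over all genes tested, with 8 values above 0 and 2 below. Without day 7 replicate 3 the median of the 10 genes was 0.19. At an unadjusted p under 0.05 there were 7 of the 10, against 25.8% of all genes tested. This number was 4 to 7 in the fits without 1 library, for which the share over all genes was not computed. The days did not overlap for 6 of the 10 genes, against 31.0% of all genes tested. In 4 of them day 7 was higher, against 15.4%, and in 2 it was lower, against 15.5%. The summed level of the 10 genes was 931 to 1139 CPM at day 5 and 1176 to 1234 CPM at day 7.

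**Figure D1:**
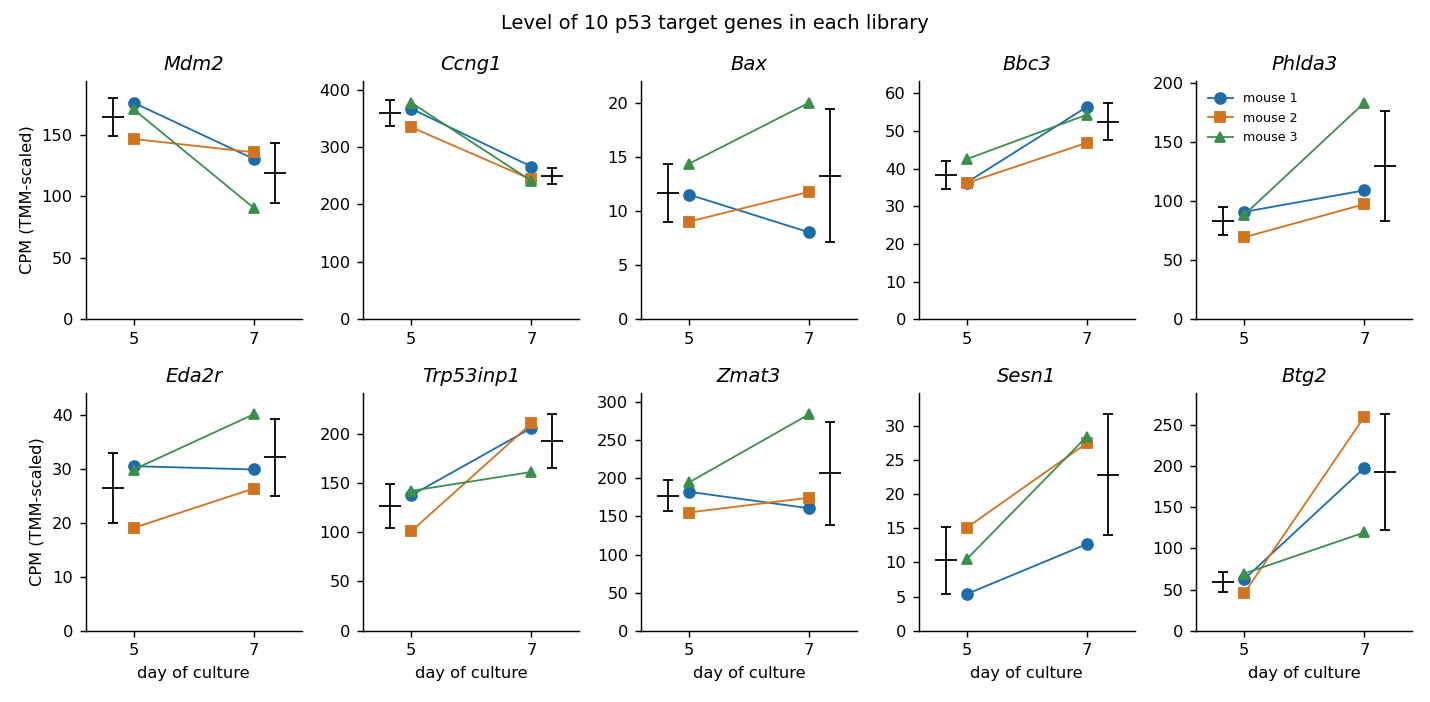
Level of each p53 target gene in TMM-scaled CPM (vertical axis, from 0) on day 5 and day 7 (horizontal axis). Coloured symbols joined by a line are the 2 libraries of 1 mouse, and black bars are the mean and SD of 3 libraries. *Btg2* lay between 45.7 and 69.5 CPM at day 5 and between 119 and 260.0 CPM at day 7, while *Ccng1* and *Mdm2* were lower at day 7 in every mouse.

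Of the genes that restrain growth, *Btg2* (ENSMUSG00000020423, GRCm39 chromosome 1, 134002908 to 134015033, minus strand) showed the larger change. Its level was 62.7, 45.7 and 69.5 CPM at day 5 and 198, 260.0 and 119 CPM at day 7 in mice 1, 2 and 3. Every day 7 library lay above every day 5 library, and the day 7 libraries differed among themselves by more than those of day 5. The day means were 59.3 ± 12.3 and 192 ± 70.4 CPM (SD, n = 3). On the log2 scale the change was 1.70 ± 0.26 (SE, adjusted p = 0.000264 by edgeR). It passed the threshold in all 19 alternative fits, with adjusted p from 1.57e-12 to 0.0109. The rise was smallest in mouse 3, with a log2 ratio of 0.78 against 1.66 in mouse 1 and 2.51 in mouse 2.

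*Sesn1* (ENSMUSG00000038332, chromosome 10, 41685931 to 41784423, plus strand) encodes sestrin 1, which holds mTORC1 in check when amino acids are short. It was among the rarest of the 10 genes in counts, with 13, 30 and 29 reads at day 5 and 33, 79 and 58 at day 7. This corresponded to 5.36, 15.1 and 10.4 CPM at day 5 and 12.7, 27.4 and 28.4 CPM at day 7 in mice 1, 2 and 3. The days overlapped, since mouse 2 at day 5 lay above mouse 1 at day 7, although each mouse was higher at day 7. The 95% counting intervals of those libraries also overlapped, with 10.2 to 21.5 CPM for mouse 2 at day 5 and 8.71 to 17.8 CPM for mouse 1 at day 7. The day means were 10.3 ± 4.85 and 22.8 ± 8.82 CPM (SD, n = 3). This gave a log2 fold change of 1.16 ± 0.37 (SE, adjusted p = 0.0460 by edgeR, range over the alternatives 0.00217 to 0.240). It lost the threshold in 12 of 19 alternative fits: among them were DESeq2 (1.15, adjusted p = 0.0686), limma voom (1.17, adjusted p = 0.0872), upper-quartile scaling and each fit without 1 library other than day 7 replicate 1. Without day 5 replicate 1 the log2 fold change was 0.84, without day 5 replicate 2 it was 1.51 and without day 5 replicate 3 it was 1.18. Without day 7 replicate 2 or 3 it was 0.99 or 1.00, and without day 7 replicate 1 it was 1.46 (adjusted p = 0.00400 by edgeR).

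The other sestrins were set beside it. *Sesn2*, on the list of other p53 targets, had 17.3, 23.1 and 28.1 CPM at day 5 and 50.6, 77.4 and 86.1 CPM at day 7 in mice 1, 2 and 3, with no overlap. Its log2 fold change was 1.64 ± 0.26 (SE, adjusted p = 0.000356 by edgeR), past the threshold in all 19 alternative fits. *Sesn3*, looked up after the values of *Sesn1* were seen, had 46.6, 39.2 and 45.4 CPM at day 5 and 90.1, 75.7 and 79.8 CPM at day 7. The fitted log2 fold change was 0.90 ± 0.20 (SE, adjusted p = 0.00611 by edgeR, range over the alternatives 0.00119 to 0.234). It missed the threshold without day 5 replicate 2 (0.83). Each of the 3 sestrin genes was therefore higher at day 7 in each of the 3 mice, and *Sesn1* was the one with the fewest counts.

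**Figure D2:**
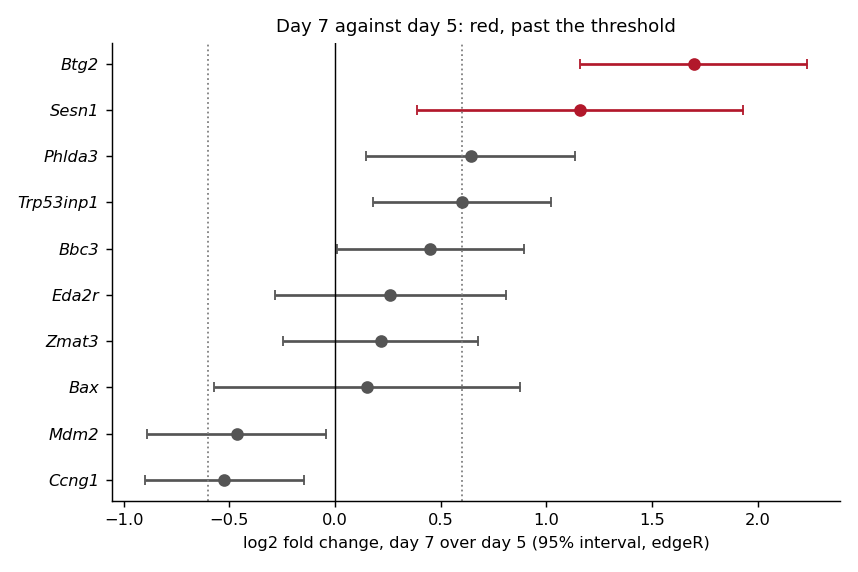
Log2 fold change of day 7 over day 5 for the 10 p53 target genes (horizontal axis), with the 95% interval of the edgeR fit. Dotted lines mark the minimum change of 0.6, and red marks genes past the threshold. Only the intervals of *Btg2*, *Sesn1*, *Phlda3*, *Trp53inp1* and *Bbc3* lie wholly above 0, and those of *Mdm2* and *Ccng1* lie wholly below it.

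Of the genes tied to cell death and survival, 3 were higher at day 7 in each mouse without passing the threshold. *Bax* and *Eda2r*, also tied to cell death, did not share a direction between mice and are given below. *Trp53inp1* (ENSMUSG00000028211, chromosome 4, 11156412 to 11175230, plus strand) encodes a stress-induced protein that promotes p53 activity and autophagy. It had 137, 101 and 142 CPM at day 5 and 206, 210.3 and 161 CPM at day 7 in mice 1, 2 and 3. The days did not overlap, with 161 CPM in mouse 3 at day 7 as the nearest value to day 5. Between the days the log2 fold change was 0.60 ± 0.20 (SE, adjusted p = 0.0582 by edgeR, range over the alternatives 0.00519 to 0.742). It passed the threshold with no filter on low counts (0.60, adjusted p = 0.0370 by edgeR), with robust = TRUE (0.60, adjusted p = 0.0489 by edgeR) and without day 7 replicate 3 (0.71, adjusted p = 0.00519 by edgeR).

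*Phlda3* (ENSMUSG00000041801, chromosome 1, 135693809 to 135697686, plus strand) encodes a pleckstrin homology domain protein that competes with AKT for membrane lipids. It had 90.7, 69.3 and 88.2 CPM at day 5 and 109, 97.2 and 183 CPM at day 7 in mice 1, 2 and 3. All day 7 libraries were above those of day 5, and mouse 3 at day 7 stood well above the others. Its log2 fold change was 0.64 ± 0.23 (SE, adjusted p = 0.0846 by edgeR, range over the alternatives 0.0283 to 0.669). It passed the threshold with no filter (0.64, adjusted p = 0.0283 by edgeR) and without day 7 replicate 1 (0.75, adjusted p = 0.0316 by edgeR), and its value was 0.31 without day 7 replicate 3.

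*Bbc3* (ENSMUSG00000002083, chromosome 7, 16042318 to 16052130, plus strand) encodes PUMA, a BH3-only protein that triggers apoptosis. It had 36.3, 36.1 and 42.5 CPM at day 5 and 56.4, 46.9 and 54.3 CPM at day 7 in mice 1, 2 and 3. The days did not overlap and the spread within each was small, with means of 38.3 ± 3.63 and 52.5 ± 5.01 CPM (SD, n = 3). On the log2 scale the change was 0.45, with a 95% interval from 0.01 to 0.89 (adjusted p = 0.185 by edgeR, range over the alternatives 0.111 to 0.970). It stayed short of the threshold in all 19 alternative fits.

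*Ccng1* and *Mdm2*, genes of the feedback loop on p53, had values below 0. *Ppm1d*, on the lists of other p53 targets and of p53 regulators read below, went the other way. The log2 fold change of *Ppm1d* was 0.55 with no overlap between the days (adjusted p = 0.123 by edgeR). *Ccng1* (ENSMUSG00000020326, chromosome 11, 40639377 to 40646148, minus strand) encodes cyclin G1, which recruits a phosphatase to MDM2. It had 367, 334 and 377 CPM at day 5 and 266, 243 and 241 CPM at day 7 in mice 1, 2 and 3. All day 7 libraries lay below all day 5 libraries, and no other of the 10 genes varied so little at day 7, with a coefficient of variation of 5.50%. This gave a log2 fold change of -0.52 ± 0.18 (SE, adjusted p = 0.0635 by edgeR, range over the alternatives 0.0194 to 0.899), with a 95% interval from -0.90 to -0.15. With library totals only as scaling it passed the threshold as lower at day 7 (-0.62, adjusted p = 0.0327 by edgeR). With DESeq2 and with limma voom the adjusted p was 0.0285 and 0.0485, but the change of -0.53 and -0.52 stayed under the minimum of 0.6. The same held with upper-quartile scaling (-0.56), with filterByExpr (-0.52) and without day 7 replicate 1 (-0.57) or 3 (-0.50). In the remaining alternatives the adjusted p was above 0.05.

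*Mdm2* (ENSMUSG00000020184, chromosome 10, 117524780 to 117546730, minus strand), the ubiquitin ligase that removes p53, had 176, 147 and 171 CPM at day 5. It had 130.4, 136 and 90.5 CPM at day 7 in mice 1, 2 and 3. The days did not overlap, and mouse 3 at day 7 was the lowest library. The means were 164 ± 15.7 and 119 ± 24.7 CPM (SD, n = 3). The fitted log2 fold change was -0.47 with a 95% interval from -0.89 to -0.04 (adjusted p = 0.146 by edgeR, range over the alternatives 0.0883 to 0.962). No alternative fit brought it past the threshold, and its value was -0.31 without day 7 replicate 3. The related inhibitor *Mdm4* had a log2 fold change of 0.19 (adjusted p = 0.588 by edgeR).

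For *Bax*, *Eda2r* and *Zmat3* the days overlapped and the mice did not share a direction. *Bax* (ENSMUSG00000003873, chromosome 7, 45111015 to 45116325, minus strand), which forms pores in the outer mitochondrial membrane, had 28, 18 and 40 reads at day 5 and 21, 34 and 41 at day 7. Its level was 11.5, 9.04 and 14.4 CPM at day 5 and 8.05, 11.8 and 20.1 CPM at day 7 in mice 1, 2 and 3. Mouse 1 was lower at day 7 and the other mice were higher. Between the days the log2 fold change was 0.15 with a 95% interval from -0.57 to 0.87 (adjusted p = 0.830 by edgeR), an interval that reaches a 1.83-fold higher level.

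*Eda2r* (ENSMUSG00000034457, chromosome X, 96320270 to 96420847, minus strand), a death-linked receptor of the TNF receptor family for ectodysplasin A2, had 30.5, 19.1 and 29.9 CPM at day 5. It had 29.9, 26.4 and 40.1 CPM at day 7 in mice 1, 2 and 3. Its log2 fold change was 0.26 with a 95% interval from -0.28 to 0.81 (adjusted p = 0.569 by edgeR). It was 0.083 without day 5 replicate 2 and 0.070 without day 7 replicate 3. *Zmat3* (ENSMUSG00000027663, chromosome 3, 32388941 to 32420163, minus strand), an RNA-binding protein that regulates splicing downstream of p53, had 182, 155 and 194 CPM at day 5. It had 161, 175 and 284 CPM at day 7. On the log2 scale the change was 0.22 with a 95% interval from -0.25 to 0.68 (adjusted p = 0.581 by edgeR). Of its 6 values only that of mouse 3 at day 7 stood outside the range of 155 to 194 CPM. Without day 7 replicate 3 the log2 fold changes of *Bax* and *Zmat3* turned to -0.24 and -0.083 (adjusted p = 0.644 and 0.750 by edgeR).

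Since organoids of both days came from the same mice, each gene was also read within a mouse. The level was higher at day 7 in all 3 mice for 5 genes, *Btg2*, *Sesn1*, *Trp53inp1*, *Phlda3* and *Bbc3*, and lower in all 3 for 2 genes, *Mdm2* and *Ccng1*. These 7 of 10 genes compare with 43.5% of all genes tested that shared a direction, 22.1% higher and 21.4% lower. Mouse 3 was the highest or lowest of the day 7 libraries for 9 of the 10 genes, against 81.7% of the 8171 genes tested with a mean of at least 10 CPM. It was the highest for *Bax*, *Phlda3*, *Eda2r*, *Zmat3* and *Sesn1* and the lowest for *Mdm2*, *Ccng1*, *Trp53inp1* and *Btg2*. Against the mean of the other two day 7 libraries its level was 2.02-fold for *Bax*, 1.78-fold for *Phlda3* and 1.69-fold for *Zmat3*, and 0.522-fold for *Btg2*. Of those 8171 genes, 15.5% exceeded 1.5-fold in this library and 20.5% lay below the inverse of it. What sets this library apart was not tested.

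**Figure D3:**
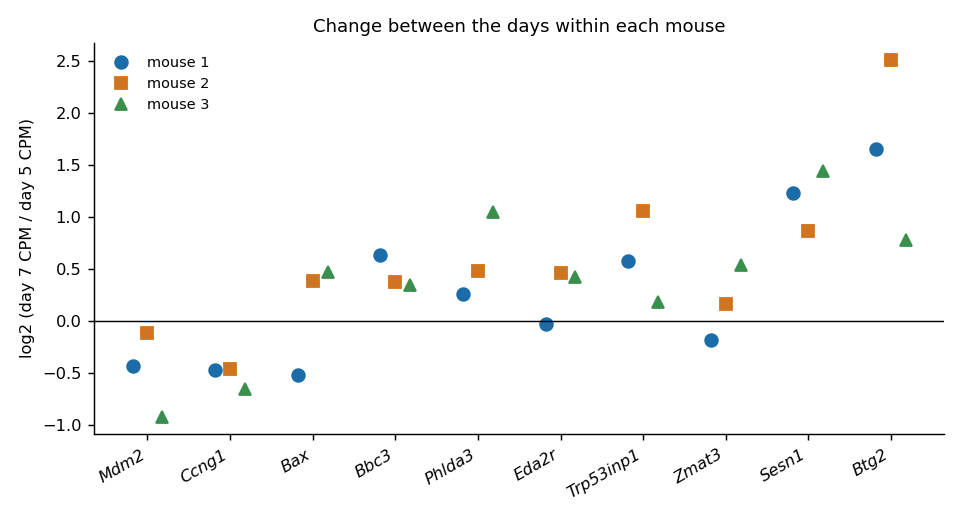
Log2 ratio of the day 7 to the day 5 level (vertical axis) for each p53 target gene (horizontal axis), with 1 symbol per mouse. *Btg2* ranged from 0.78 in mouse 3 to 2.51 in mouse 2, whereas *Ccng1* lay between -0.65 and -0.46 in all 3 mice.

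The p53 gene itself and its closest partners were read next. *Trp53*, which encodes p53, had 42.5, 35.1 and 42.1 CPM at day 5 and 27.2, 24.3 and 29.9 CPM at day 7 in mice 1, 2 and 3. The days did not overlap, with every day 7 library below every day 5 library. Its log2 fold change was -0.56 ± 0.23 (SE, adjusted p = 0.115 by edgeR, range over the alternatives 0.0300 to 0.809). *Cdkn1a*, which encodes the cell cycle inhibitor p21 and carries the element printed above, had 519, 494 and 613 CPM at day 5 and 885, 752 and 599 CPM at day 7. The days overlapped through mouse 3, in which the level was about even, and the log2 fold change was 0.46 with a 95% interval from 0.05 to 0.87 (adjusted p = 0.141 by edgeR, range over the alternatives 0.0103 to 0.974). *Trp63* (0.45, adjusted p = 0.271 by edgeR) and *Trp73* (0.12, adjusted p = 0.876 by edgeR), which encode the p53 relatives p63 and p73, did not pass either. Without day 7 replicate 3, *Trp53* (-0.64, adjusted p = 0.0300 by edgeR) and *Trp63* (0.71, adjusted p = 0.00811 by edgeR) passed the threshold. Transcript levels do not measure the amount of p53 protein, which is set largely by its stability.

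Among 34 other p53 targets, all of them tested, 3 rose and 2 fell, against 7.22% and 4.82% of all genes tested, and the median log2 fold change was 0.00. *Sesn2* was one of the rises. *Pmaip1*, which encodes the BH3-only protein NOXA, went from 33.4 ± 3.14 to 73.3 ± 21.3 CPM (SD, n = 3). This gave a log2 fold change of 1.13 (adjusted p = 0.00414 by edgeR). *Gdf15*, a secreted stress cytokine, went from 4.38 ± 2.06 to 10.7 ± 3.44 CPM on 31 and 78 reads (log2 fold change 1.28, adjusted p = 0.0480 by edgeR, range over the alternatives 0.00906 to 0.246). *Pmaip1* missed the threshold without day 5 replicate 2 (1.07), and *Gdf15* in each fit without 1 library other than day 7 replicate 1, with 0.97 to 1.71. With all 6 libraries *Gdf15* passed in only 5 of 13 alternative fits. *Psrc1*, a spindle protein gene, fell by 1.20 on the log2 scale (adjusted p = 0.0130 by edgeR). *Pidd1*, a scaffold for caspase activation, fell by 1.85 on the log2 scale on 29 and 8 reads (adjusted p = 0.0418 by edgeR, range over the alternatives 0.0269 to 0.172). *Psrc1* missed the threshold without day 5 replicate 1 (-1.13) or 3 (-1.14), and *Pidd1* in each fit without 1 library other than day 7 replicate 3 (at most -1.67). With all 6 libraries *Pidd1* passed in 8 of 13 alternative fits. The count of 5 past the threshold depended on the libraries and on the fit. It was 10 without day 7 replicate 3, with 8 higher, and 6 without day 7 replicate 1. It was 3 without day 7 replicate 2, and 2 without any 1 of the day 5 libraries. With the mouse as a block it was 9, with 7 higher and 2 lower. With no filter 6 were higher and 3 lower, with filterByExpr or DESeq2 2 and 1, and with glmTreat 1 and 0.

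Of 24 regulators of p53, 23 were tested, and 1 rose and 2 fell, where 12.0% of all genes tested passed in either direction. *Hipk2*, a kinase that phosphorylates p53, rose from 27.2 ± 3.14 to 51.9 ± 2.93 CPM (SD, n = 3). The fitted log2 fold change was 0.94 (adjusted p = 0.00809 by edgeR). The checkpoint kinase genes *Chek1* (-1.50, adjusted p = 0.00211 by edgeR) and *Atr* (-1.41, adjusted p = 0.0116 by edgeR) fell. *Hipk2* missed the threshold without day 5 replicate 1 (0.91) or 3 (0.87), and *Atr* without day 5 replicate 2 (-1.15) or day 7 replicate 2 (-1.42). The median of the list was -0.17, or -0.30 without day 7 replicate 1 and -0.044 without day 7 replicate 3. Its count was 8 without day 7 replicate 3, with 2 higher and 6 lower.

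In the BCL2 family, which contains the partners and targets of BAX and PUMA, 15 of 20 genes were tested, with 3 rises, no fall and a median log2 fold change of 0.50. Of all genes tested, 7.22% rose, and the median of the family was 0.27 without day 7 replicate 3. The rises in the family were *Pmaip1*, given above, *Bcl2l1* and *Bmf*. *Bcl2l1*, whose main product BCL-XL blocks BAX, went from 55.7 ± 8.52 to 94.8 ± 29.0 CPM (SD, n = 3; log2 fold change 0.76, adjusted p = 0.0397 by edgeR, range over the alternatives 0.00431 to 0.498). It missed the threshold in each fit without 1 library other than day 7 replicate 1, with 0.50 to 0.86. With all 6 libraries *Bcl2l1* passed in 7 of 13 alternative fits. *Bmf*, a BH3-only gene, had 0 reads at day 5 and 18 at day 7, at least 5.38-fold higher when 3 counts are allowed over the day 5 libraries together. Genes that promote and genes that block death were thus both among the rises. The count was 1 without day 5 replicate 2.

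**Figure D4:**
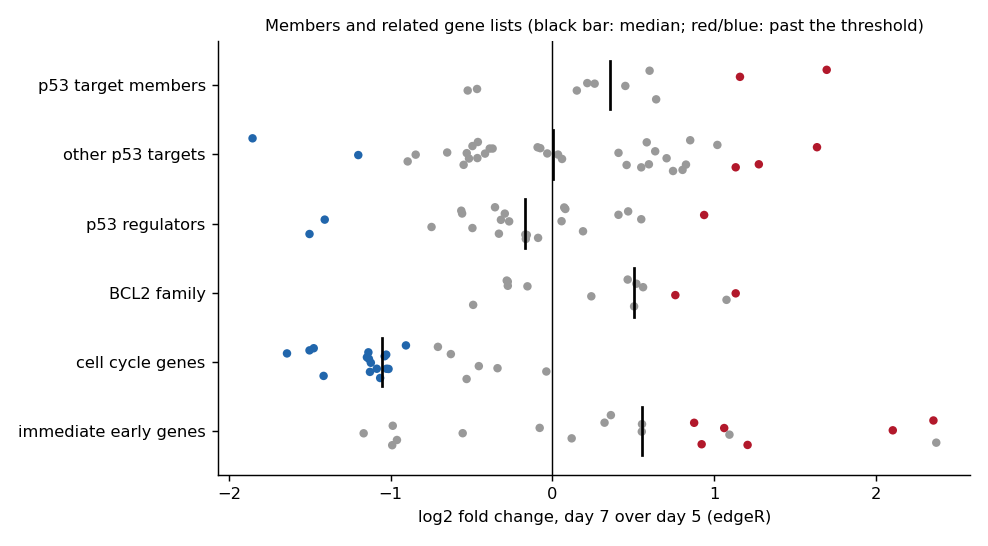
Log2 fold change of day 7 over day 5 (horizontal axis) for the p53 target genes and the related lists (rows); each point is a gene, the black bar is the median of the genes tested, and red and blue mark rises and falls past the threshold. *Bik* and *Bmf*, with no count at day 5, are not drawn. The cell cycle genes have a median of -1.05, the p53 target genes of 0.36 and the other p53 targets of 0.00.

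Cell cycle genes that p53 lowers through p21 and the DREAM repressor complex were given as a further list. Of 22 genes, all tested, 16 fell and none rose, against 4.82% and 7.22% of all genes tested, with a median log2 fold change of -1.05. *Rrm2* (-1.64, adjusted p = 0.000382 by edgeR), *Mki67* (-1.41, adjusted p = 0.00046 by edgeR), *Plk1* (-1.13, adjusted p = 0.00172 by edgeR) and *Top2a* (-1.04, adjusted p = 0.00184 by edgeR) had the smallest p. The summed level of the list was 2635 to 3015 CPM at day 5 and 1017 to 1497 CPM at day 7. In bulk samples fewer cells of a type and less RNA per cell cannot be told apart. Without day 5 replicate 2 the count was 9. With glmTreat it was 4, in a fit where 623 of all genes tested passed.

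*Btg2* is also an immediate early gene, so 19 others of that class were set beside it. Of these, 6 rose past the threshold and none fell past it, against 7.22% and 4.82% of all genes tested. Their median log2 fold change was 0.55, or 0.25 without day 7 replicate 1. *Jun*, a subunit of AP-1, went from 111 ± 17.4 to 571 ± 147 CPM (SD, n = 3). Between the days the log2 fold change was 2.36 (adjusted p = 2.33e-06 by edgeR). *Zfp36*, whose product promotes mRNA decay, rose by 2.10 (adjusted p = 0.00143 by edgeR), *Jund* by 1.21 and *Ier3* by 0.92 on the log2 scale. *Ier3* missed the threshold without day 5 replicate 2 (0.78) or 3 (0.94). The class did not share a direction, with 13 of the 19 values above 0 and 6 below. *Fos* had -0.99 (adjusted p = 0.218 by edgeR), with log2 ratios of -0.58, -1.58 and -2.02 in mice 1, 2 and 3. *Atf3*, *Klf2* and *Socs3* were also lower at day 7 in every mouse, without passing the threshold. The summed level of this list was 1546 to 1947 CPM at day 5 and 3263, 2885 and 1757 CPM at day 7 in mice 1, 2 and 3. As with *Btg2*, mouse 3 was the lowest of the day 7 libraries. With the mouse as a block, 8 rose and 4 fell. The count was 11 without day 7 replicate 1, with 5 of them lower, 10 without day 7 replicate 3, all higher, 4 without day 7 replicate 2 or day 5 replicate 1 and 3 without day 5 replicate 2 or 3.

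Close relatives of the 10 genes were also read, from a list of 15 written after the values above were seen. Besides *Sesn2* and *Sesn3*, *Tnfrsf19* (1.92, adjusted p = 0.00265 by edgeR) and *Phlda1* (0.91, adjusted p = 0.0426 by edgeR) rose and *Phlda2* fell (-1.27, adjusted p = 0.0161 by edgeR), while *Phlda3* itself lay between these with 0.64. The other relatives did not pass the threshold: *Mdm4*, *Ccng2*, *Bak1*, *Bok*, *Edar*, *Trp53inp2*, *Btg1*, *Btg3*, *Tob1* and *Tob2*. *Edar*, like *Tnfrsf19* a relative of *Eda2r*, had 0.081 (adjusted p = 0.971 by edgeR). Of all genes tested, 12.0% passed in either direction. *Phlda1* had 336, 358 and 124 CPM at day 7 in mice 1, 2 and 3 against 133 to 157 CPM at day 5, and it missed the threshold in each fit without 1 library other than day 7 replicate 3. With all 6 libraries *Phlda1* passed in only 6 of 13 alternative fits. *Phlda2* missed it without day 5 replicate 2 (-1.15) or 3 (-1.28) and without day 7 replicate 2 (-1.21). *Btg1*, the nearest relative of *Btg2*, had a log2 fold change of 0.55 with no overlap between the days (adjusted p = 0.136 by edgeR), and it passed the threshold without day 7 replicate 3 (0.69). *Ccng2* had 1.01 (adjusted p = 0.130 by edgeR), where *Ccng1* had -0.52. Its level was higher at day 7 in mice 1 and 2, with log2 ratios of 1.42 and 1.28, and lower in mouse 3, with -0.73. It passed the threshold with no filter (1.01) and without day 7 replicate 3 (1.43), and its value was 0.51 without day 7 replicate 1. The difference between relatives was not tested.

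The annotation was checked for reads that could belong to other genes. Over the last 500 bases of the main transcript, none of the 10 genes matched a transcript of another gene over more than 33 bases at 95% identity. Exons of *Mdm2*, *Ccng1*, *Btg2*, *Sesn1* and *Bax* overlap exons of a gene on the other strand. For *Bax* this touches 60 of the last 500 bases, by the predicted gene *Gm73431*, and for the other 4 genes it touches none of them. *Bax* also overlaps the predicted gene *Gm45808* on its own strand, outside those bases. Whether reads were counted by strand is not given in the sources used here, so a share of the *Bax* reads is uncertain.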

How the data were processed

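The authors prepared 3′-end libraries of polyadenylated RNA (Lexogen QuantSeq) and aligned the reads to GRCm39. The aligner, annotation release and strand setting are not given in the sources used here. The deposited values are raw counts, whole numbers for each Ensembl gene ID. The 5 closing entries of each file name no gene, held 13.7% to 14.4% of reads at day 5 and 9.12% to 9.74% at day 7, and were dropped. GENCODE vM39 named 91.2% of the IDs.

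A gene was tested if 2 or more libraries had a count. The study's methods name edgeR, a filter of this kind and the threshold. The model had day as its single term and was fitted in edgeR 4.0.16 (R 4.3.3) after TMM scaling, with a two-sided quasi-likelihood test. SE were derived from the fold change and the F statistic. Intervals are at 95%, and counting intervals and the limit of 3 counts cover counting error only. Alternatives were 3 other scalings, scaling without the ID of highest count, no filter, filterByExpr, the mouse as a block, DESeq2 1.42.0, limma 3.58.1 (voom), robust = TRUE, no minimum fold, glmTreat, thinned counts and leaving out each of 6 libraries. Shared 3′ ends were searched with BLAST 2.17.0. Libraries of a day differed by more than sampling noise, with a chi-square per degree of freedom of at least 1.99.

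Libraries with the same number are from 1 mouse, per the labels. Their deviations from the day means had correlations of 0.138 (mouse 1), -0.0998 (mouse 2) and 0.164 (mouse 3).

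The 10 genes and all lists were chosen with earlier results of these data known. The lists share genes, so their counts and medians are not separate. *Trp53* and *Mdm4* are also counted among the regulators, and *Cdkn1a* among the other targets. *Ppm1d* is among the other targets and the regulators. *Chek1* is among the regulators and the cell cycle genes, and *Pmaip1* among the other targets and the BCL2 family. The text names the 10 genes, *Trp53*, *Trp63*, *Trp73*, *Mdm4* and *Cdkn1a* whatever their values, and up to 4 genes of smallest p past the threshold in each direction of every other list. *Ppm1d*, *Fos*, *Atf3*, *Klf2* and *Socs3* were added for their values, as genes going the other way from those named beside them. The 15 relatives were chosen after the values were seen.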

Additional observations from a re-analysis of the deposited data

How the results depend on the processing

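The count of 2 p53 target genes past the threshold was 1 with upper-quartile scaling, filterByExpr, DESeq2, limma voom, glmTreat or thinned counts, 4 with no filter, 3 with robust = TRUE, and 1 to 3 in the fits without 1 library. *Btg2* was the gene left where the count was 1. With library totals only it was 2, 1 higher and 1 lower. With the mouse as a replicate block it was 2, with *Btg2* at 1.64 and *Sesn1* at 1.17, and the block changed no call among the 10 genes. Over all genes tested, the 1901 genes past the threshold became 623 with glmTreat and 794 to 2575 in the fits without 1 library. They became 2339 with the replicate block. With library totals only, 950 genes were higher and 1008 lower, against 1140 and 761. Of the single p53 target genes, the direction changed for *Bax*, from -0.24 to 0.41, and *Zmat3*, from -0.083 to 0.37, in the fits without 1 library. The other 8 genes kept their direction in all 19 alternatives. *Trp73*, not one of the 10, had -0.15 with thinned counts. With 3 libraries per day and under 100 reads per day, changes of *Bax* anywhere within its interval are compatible with the counts.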
